A study of Mus musculus with 2 samples.

Results

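Myofibroblasts of the mouse lung were chosen from 2 single-cell RNA libraries by their transcripts, and they were 406 of the 4581 cells kept in all. A cell was kept with at least 500 genes and at most 10% mitochondrial transcripts. It was taken as mesenchymal when its transcripts of Col1a1, Col1a2, Col3a1, Bgn and Dcn summed to at least 2 and to more than those of Pecam1, Cdh5, Cldn5 and Egfl7. It was taken as a myofibroblast when its sum over 5 genes, Aspn, Hhip, Mustn1, Wif1 and Enpp2, was at least 3 and larger than each of the 3 marker sums for alveolar fibroblasts, adventitial fibroblasts and pericytes. The transcripts are unique molecular identifiers (UMIs), tags that count each captured RNA molecule once. The rule gave 256 myofibroblasts of 1770 kept cells in the Cherry_Positive library and 150 of 2811 in the Cherry_Negative library. Both groups are lung cells without CD45, the surface protein of leukocytes, separated by flow cytometry. All came from lungs dissociated 7 days after Labelling-4T1 cells had been injected into the bloodstream. 4T1 cells are a mammary carcinoma line of mouse that colonises the lung, and their labelling form is known to release a Cherry protein that enters neighbouring cells. Both groups therefore came from lungs exposed to tumour cells. Each group is 1 library, and the labels give neither the number, strain nor age of the mice nor whether they were irradiated.

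Myofibroblasts are contractile stromal cells that carry smooth muscle actin and lay down collagen and elastin. In the lung they sit around alveolar ducts and airways, where they answer to hedgehog, Wnt and TGF-beta signals. Stromal cells also respond to interferons, and interferon gamma raises antigen presentation, guanylate-binding proteins and the chemokines that attract T cells.

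The libraries held 1826 barcodes with 10094853 UMIs (Cherry_Positive) and 2861 barcodes with 11632459 UMIs (Cherry_Negative), and 56 and 50 barcodes were left out. Depth differed within the myofibroblasts. The median cell had 4345 UMIs among Cherry_Positive and 2489.5 UMIs among Cherry_Negative myofibroblasts. The ratio of the mean UMIs per cell was 1.89, above the 1.36 to 1.58 of the other 3 mesenchymal classes. Of 13 barcodes found in both libraries, 3 were a myofibroblast in either library and 0 in both. Since each group is a single library, no test could be made, and every difference below is one between these libraries. Levels are in CPM, the UMIs of a gene scaled to a class total of 1e+06 UMIs. Intervals are 95% and cover counting error only.

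Transcripts of other cell types moved with the groups as well. The 9 genes of type 2 alveolar epithelium, such as surfactant, summed to 194 CPM in Cherry_Positive and 2045 CPM in Cherry_Negative myofibroblasts, with 0 to 8 and 0 to 21 UMIs per cell. The 11 endothelial genes summed to 218 and 578 CPM, with 0 to 30 and 0 to 47 UMIs per cell. The list of 8 macrophage or monocyte genes summed to 24.5 and 151 CPM. Only 3 of these genes were seen in Cherry_Positive and 2 in Cherry_Negative myofibroblasts, with 34 and 65 UMIs. The list shares Lyz2 with that of type 2 epithelium, so the same RNA can enter both sums. The 5 erythroid genes summed to 145 and 14 CPM, with 0 to 4 and 0 to 1 UMIs per cell. The leukocyte marker Ptprc had 0 UMIs in both libraries. An alternative with free RNA subtracted is given beside the gene counts, and the part of this RNA in single genes was otherwise not tested.

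Few cells stood apart. Cells with at least 3 UMIs of 8 carcinoma markers such as the keratin Krt8 numbered 4 among Cherry_Positive myofibroblasts, with 33850, 30954, 14214 and 10950 UMIs, and 2 in Cherry_Negative ones, with 7447 and 3241 UMIs. These 4 cells held 720 of the 724 Cherry_Positive UMIs of Slpi and 412 of the 418 of Spp1, so Spp1, at 0 UMIs in Cherry_Negative cells, is not read as a myofibroblast gene here. Their myofibroblast sums were only 5 to 8 UMIs, and the deepest of them had 3 mesenchymal UMIs. Counts below are also given without them where they decide a value. Transcripts of type 1 alveolar epithelium also sat mostly in single cells. Its 7 genes had 324 UMIs in Cherry_Positive and 68 UMIs in Cherry_Negative myofibroblasts, and the top cell held 90.7% and 60.3% of them. Whether the cells that stood apart are carcinoma cells, lung epithelium or doublets was not tested.

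The genes of the rule are given as a description, first at each cell's own depth. Mustn1, which encodes a small muscle and skeletal nuclear protein, was seen in 98.8% of Cherry_Positive and 96.0% of Cherry_Negative myofibroblasts. Aspn, the matrix proteoglycan asporin, was seen in 82.0% and 86.0%. Enpp2, the enzyme that makes lysophosphatidic acid, was seen in 79.7% and 67.3%, Hhip, a binder of hedgehog ligands, in 59.8% and 74%, and the Wnt inhibitor Wif1 in 47.3% and 44.0%. At least 3 of the 5 genes were seen in 84.8% of Cherry_Positive and 82.7% of Cherry_Negative cells. The sum of the 5 genes had a median of 25 in Cherry_Positive and 22.5 in Cherry_Negative cells. With each cell thinned to 2000 UMIs the order turned, to medians of 11 in Cherry_Positive and 17.5 in Cherry_Negative cells. At that depth Enpp2 was seen in 65.1% of Cherry_Positive and 67.5% of Cherry_Negative cells, and Wif1 in 34.5% and 41.2%, so their order turned too. The CPM of all 5 genes was lower in Cherry_Positive cells, from Hhip at 323 and 1041 CPM to Wif1 at 457 and 612 CPM. Just inside the threshold, with a sum of 3, were 2 and 2 cells. Just outside, with a largest sum of 2, were 3 and 0 cells, and 1 and 1 cells were left out by a tie. Another 74 and 51 cells had a sum of at least 3 but a larger sum for another class.

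Genes that the rule did not use mostly went with the name. Acta2, smooth muscle actin, was at 2821 CPM in Cherry_Positive myofibroblasts against 219 to 357 CPM in the other 3 mesenchymal classes of that library. In the Cherry_Negative library it was at 4932 CPM in myofibroblasts against 20.3 to 748 CPM. Fgf18, a growth factor of alveolar myofibroblasts, was at 69.8 CPM in Cherry_Positive and 196 CPM in Cherry_Negative myofibroblasts, and no other class exceeded 12.6 CPM. The Wnt receptor gene Lgr6 was at 33.8 CPM in Cherry_Positive and 46.6 CPM in Cherry_Negative myofibroblasts, with at most 1.40 CPM elsewhere. Other markers went against the name. Igf1 was higher in adventitial fibroblasts, at 453 CPM in the Cherry_Positive and 390 CPM in the Cherry_Negative library, than in myofibroblasts, at 397 and 265 CPM. Egfem1 was at 9.36 CPM in Cherry_Positive myofibroblasts against 19.3 CPM in pericytes, and at 18.6 CPM in Cherry_Negative myofibroblasts against 10.7 CPM. Pdgfra, the platelet-derived growth factor receptor of many lung fibroblasts, was at 18 CPM in Cherry_Positive and 9.32 CPM in Cherry_Negative myofibroblasts, against 285 and 356 CPM in alveolar fibroblasts. The cells are therefore Acta2-high and Pdgfra-low. The rule formed no smooth muscle class to compare with. The 10 smooth muscle markers summed to 1462 CPM in Cherry_Positive and 2257 CPM in Cherry_Negative myofibroblasts. Whether the name separates these cells from smooth muscle was not tested.

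**Figure D1:**
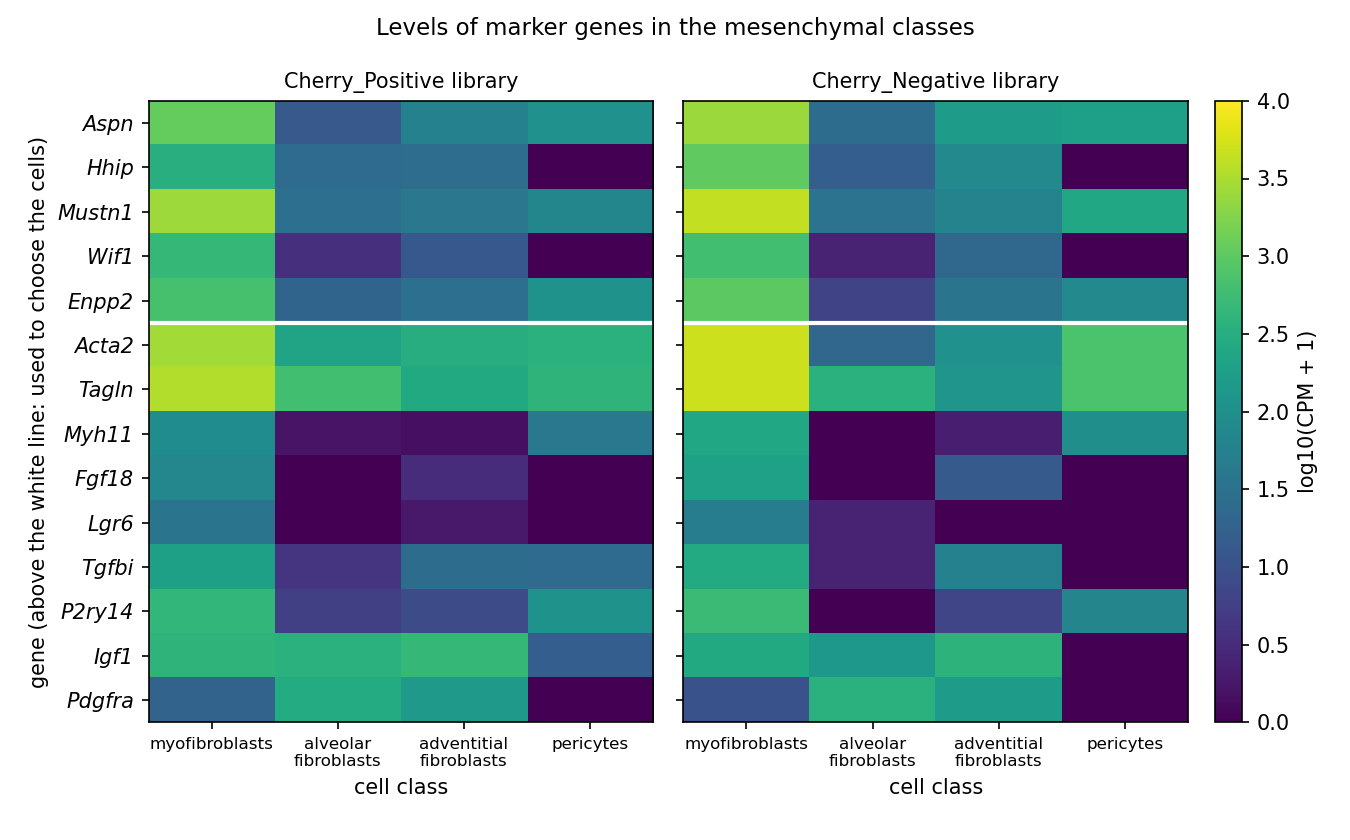
Colour gives log10 of CPM plus 1 for marker genes (rows) in the 4 mesenchymal classes (columns) of the Cherry_Positive (left) and Cherry_Negative (right) library, with 1 library each. Genes above the white line chose the cells; below it, Acta2 reaches 2821 and 4932 CPM in myofibroblasts while Pdgfra stays at 18 and 9.32 CPM.

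Myofibroblasts made up a larger share of all Cherry_Positive than of all Cherry_Negative cells, but a close share of mesenchymal cells. They were 14.5% (12.9 to 16.2) of kept Cherry_Positive cells and 5.34% (4.53 to 6.23) of kept Cherry_Negative cells, a ratio of 2.71, with exact binomial intervals. Among mesenchymal cells they were 18.5% (16.4 to 20.6) of Cherry_Positive and 18.8% (16.2 to 21.7) of Cherry_Negative ones, a ratio of 0.98. The ratio over all kept cells was 2.38 for alveolar fibroblasts, 3.01 for adventitial fibroblasts and 2.22 for pericytes, so myofibroblasts lay within the range of their neighbours. The sort on Cherry and CD45 sets which cells enter each library, so these are shares of sorted cells.

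Apart from the rule, a small set of genes stood at least 2-fold above all 3 other mesenchymal classes in both libraries, 50 of the 1970 with at least 30 UMIs in each library's myofibroblasts (2.54%). They are described without a test, since the rule chose the cells on this contrast. Agt, which encodes angiotensinogen, the precursor of the angiotensin peptides, was at 106 CPM in Cherry_Positive and 382 CPM in Cherry_Negative myofibroblasts, and at most 2.30 CPM in any other class. Cnn1, the actin-binding calponin of smooth muscle, was at 108 and 368 CPM. Scx, the tendon transcription factor scleraxis, was at 101 CPM and 191 CPM, and Pdlim3, a Z-disc protein gene, at 94.3 and 200 CPM. Cyp2e1, a cytochrome P450 gene, was at 73.4 CPM and 200 CPM, and S100b, a calcium-binding protein gene, at 61.2 and 144 CPM. The smooth muscle actin Actg2 was at 580 and 615 CPM. P4ha3, a collagen prolyl hydroxylase gene, ran the other way, at 313 CPM in Cherry_Positive and 163 CPM in Cherry_Negative myofibroblasts. The other genes named by the same rule were 6330403K07Rik, Fgf18, Cdh4 and Cntfr.

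Between the libraries, 5951 genes had at least 30 UMIs in the myofibroblasts. At least 2-fold higher in Cherry_Positive cells were 420 of them (7.06%) and at least 2-fold lower 372 (6.25%), while the median log2 ratio over all 5951 was -0.05. The interval lay off 1 for 312 of the higher and 344 of the lower genes. Without the cells that carried carcinoma markers the counts were 363 and 330. With 5% of the UMIs subtracted as free RNA they were 462 and 387. A trimmed-mean scaling, which sets the bulk of genes level, raised every log2 ratio by 0.19 and moved the split to 606 higher and 235 lower. Each list below was also read against that shift, and its sign held unless stated. The interval given for a list median is the counting interval of its middle gene or genes. It depends on their UMIs and does not measure the spread of the list. This interval also covered 0 for the Wnt, elastic fibre, collagen, growth factor, glycolysis, p53, lysophosphatidic acid, adhesion and retinoid lists.

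Chemokine genes had the highest median of the 28 lists and were mostly higher in Cherry_Positive myofibroblasts. Among 12 measured chemokine genes 11 were higher, 9 of them at least 2-fold, with a median log2 ratio of 2.69. Over all 9211 genes with at least 10 UMIs, 44.6% were higher, 8.70% at least 2-fold higher, 11.3% at least 2-fold lower, and the median was -0.11. Cxcl10 (chr5:92346638-92348889, GRCm38), a ligand of the T cell receptor CXCR3, was at 3651 CPM (3552 to 3753) in Cherry_Positive and 519 CPM (453 to 592) in Cherry_Negative myofibroblasts, a ratio of 7.03 (6.15 to 8.08). Its neighbour Cxcl9 (chr5:92321347-92328079), another CXCR3 ligand, had 864 UMIs in Cherry_Positive cells against 1 UMI, a ratio of 267 (47.8 to 10564). The Cxcl9 transcripts came from 49 Cherry_Positive cells, and the cell with most of them held 17.5%.

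The monocyte attractants followed. Ccl2 (chr11:82035571-82037453) was at 2073 CPM (1998 to 2150) in Cherry_Positive and 184 CPM (146 to 229) in Cherry_Negative cells, a ratio of 11.3 (9.01 to 14.3). Ccl7 (chr11:82045712-82047525), beside it on the chromosome, was at 1195 and 128 CPM, a ratio of 9.33 (7.13 to 12.4). The top Cherry_Negative cell for each gene held 55.7% of the Ccl2 and 36.4% of the Ccl7 UMIs of that library. Ccl5 (chr11:83525778-83530518), which attracts T cells and monocytes, had 430 UMIs in 23 Cherry_Positive cells against 0 UMIs. This is at least 44.3-fold higher when 3 counts per library are taken as the lower limit, or at least 29.5-fold without the top cell. The neutrophil attractant Cxcl1 was at 1077 CPM in Cherry_Positive and 426 CPM in Cherry_Negative cells, a ratio of 2.53 (2.17 to 2.96). Cxcl12, the ligand of CXCR4, did not follow, at 65.5 and 81.5 CPM with an interval of the ratio of 0.54 to 1.22.

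Of 12 measured cytokine and acute-phase genes 11 were higher and 7 at least 2-fold, with a median log2 ratio of 1.49. Saa3 (chr7:46711998-46715700), an acute-phase apolipoprotein, had 1375 UMIs in 115 Cherry_Positive cells against 2 UMIs in 2 Cherry_Negative cells, a ratio of 213 (58.7 to 1757). A single cell held 35.6% of the Cherry_Positive UMIs. In the Cherry_Positive library Saa3 was at 990 CPM in myofibroblasts and 120 CPM in pericytes. It was higher in alveolar fibroblasts, at 7698 CPM, and in adventitial fibroblasts, at 4372 CPM, where its ratios between the libraries were 7.54 and 6.88. How much of the myofibroblast count is free RNA of those classes was not tested. Il6, an acute-phase cytokine, was at 298 CPM in Cherry_Positive and 156 CPM in Cherry_Negative cells, a ratio of 1.91 (1.47 to 2.51), with 40.3% of the Cherry_Negative UMIs in 1 cell. Tnfaip6, a hyaluronan-binding protein gene, was at 184 and 72.2 CPM, and the cytokine gene Lif at 43.2 and 11.6 CPM. The NF-kappa-B inhibitor genes Nfkbia and Nfkbiz were close to level, with ratios of 1.06 (0.95 to 1.18) and 0.89 (0.70 to 1.13). Complement genes had a median of 1.03 with 8 of 9 higher and 5 at least 2-fold. Among them C3, the central component, was at 248 and 81.5 CPM, and C1s1, a C1 protease gene, at 156 and 32.6 CPM.

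**Figure D2:**
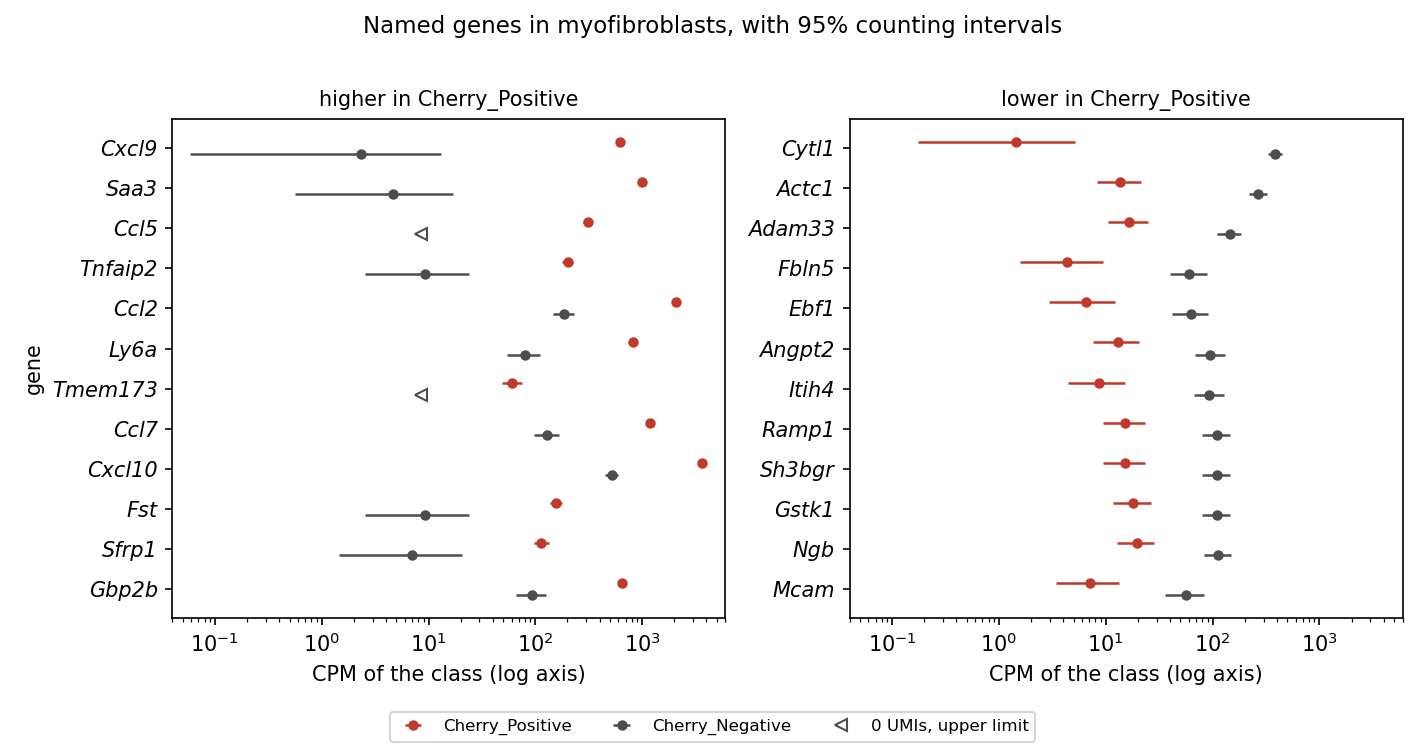
Points give the CPM (log axis) of the 24 genes named by rule in Cherry_Positive (red) and Cherry_Negative (grey) myofibroblasts, 1 library each, with 95% Poisson intervals; open triangles mark the upper limit for 0 UMIs. In the left panel every Cherry_Positive point lies to the right of its Cherry_Negative partner, from Tmem173 at 60.5 CPM to Cxcl10 at 3651 CPM, and in the right panel every one lies to the left.

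Interferon-induced and antigen-presentation genes were higher as a body in Cherry_Positive myofibroblasts. All 19 measured genes of the interferon gamma list were higher and 18 at least 2-fold, with a median log2 ratio of 2.32. Leaving out every cell with 3 or more UMIs of other lineages, which kept only 40 Cherry_Positive and 4 Cherry_Negative cells, turned this median to -1.07. Gbp2b (chr3:142594847-142619179), a guanylate-binding protein, was at 644 CPM (603 to 688) in Cherry_Positive and 93.2 CPM (66.5 to 127) in Cherry_Negative cells, a ratio of 6.92. The immunity-related GTPase gene Iigp1 was at 1351 and 254 CPM and its relative Igtp at 259 and 41.9 CPM. Irf1, an early transcription factor of the interferon response, had a ratio of 1.25 (1.005 to 1.57). Tgtp1 and Tgtp2 are near-identical genes, so their counts of 51 and 104 UMIs in Cherry_Positive cells against 2 and 4 UMIs are uncertain one by one.

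The type I interferon list had 19 of 21 genes higher, 12 at least 2-fold, and a median of 1.39. Isg15, a ubiquitin-like protein gene, was at 645 CPM in Cherry_Positive and 149 CPM in Cherry_Negative cells. The antiviral gene Ifit3 was at 161 and 27.9 CPM, and Ifitm3 at 7388 and 4145 CPM. All 19 genes of the MHC class I list were higher, 13 of them at least 2-fold, and the median was 1.54. B2m, the shared light chain, was at 5147 CPM (5028 to 5268) in Cherry_Positive and 1768 CPM (1644 to 1898) in Cherry_Negative cells. The peptide transporter gene Tap1 was at 177 and 32.6 CPM and the immunoproteasome gene Psmb8 at 629 and 184 CPM. The class I genes H2-Q6 and H2-Q7 share sequence, and their single values are uncertain. All 6 MHC class II genes were higher with a median of 1.91, but 1 Cherry_Positive cell held 58.9% of the 270 UMIs of Cd74. Without the cells that carried carcinoma markers the MHC class II median was 0.54.

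Ly6a, Tnfaip2 and Tmem173, also named by rule, ran in the same direction. Ly6a, the surface protein Sca-1, was at 824 CPM in Cherry_Positive and 79.2 CPM in Cherry_Negative cells, but it reached 6816 and 5036 CPM in the endothelial cells of the same libraries. Tnfaip2, a gene induced by tumour necrosis factor, was at 201 and 9.32 CPM. Tmem173, the DNA-sensing adaptor STING, had 84 UMIs in 48 Cherry_Positive cells against 0 UMIs, at least 8.66-fold higher.

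The bases before the start of some of these genes are shown because interferon-stimulated response elements are known to lie there. The core searched was GAAA, any 2 bases and GAAA again, on both strands, so that it reads TTTC, any 2 bases and TTTC on the other, in the 250 bases before each gene's start (RefSeq, GRCm38.p6). It was present in 936 of 27025 promoters (3.46%). Of the interferon gamma list 10 of the 15 genes with a promoter in the table held it, and of the type I list 9 of 19. Of the MHC class I list 3 of 16 held it, of the chemokines 3 of 11, and of the contractile genes 1 of 16. Of the named genes with a promoter in the table, 3 of 5 higher and 1 of 8 lower ones held it. The 2 interferon lists were drawn up as interferon-induced genes, so their shares are no result of these cells. A match is a run of letters, not a shown binding site. The 250 bases before Cxcl10 (chr5:92348890-92349139, minus strand), Gbp2b (chr3:142594597-142594846, plus strand), Isg15 (chr4:156200819-156201068, minus strand) and Igtp (chr11:58199306-58199555, plus strand) follow 5′ to 3′, with the core or its reverse in capitals. Isg15 holds 3 overlapping matches and the others 1 each, set beside ratios of 7.03, 6.92, 4.33 and 6.18 for Cxcl10, Gbp2b, Isg15 and Igtp.
Cxcl10: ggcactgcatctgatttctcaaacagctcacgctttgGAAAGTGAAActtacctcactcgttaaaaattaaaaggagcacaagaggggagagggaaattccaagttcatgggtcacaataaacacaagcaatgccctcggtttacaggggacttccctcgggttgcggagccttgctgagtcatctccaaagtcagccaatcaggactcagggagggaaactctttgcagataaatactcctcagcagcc
Gbp2b: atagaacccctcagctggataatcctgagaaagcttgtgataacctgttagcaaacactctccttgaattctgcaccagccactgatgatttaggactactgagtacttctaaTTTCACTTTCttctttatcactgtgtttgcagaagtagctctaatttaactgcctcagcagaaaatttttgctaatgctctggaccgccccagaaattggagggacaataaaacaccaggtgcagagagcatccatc
Isg15: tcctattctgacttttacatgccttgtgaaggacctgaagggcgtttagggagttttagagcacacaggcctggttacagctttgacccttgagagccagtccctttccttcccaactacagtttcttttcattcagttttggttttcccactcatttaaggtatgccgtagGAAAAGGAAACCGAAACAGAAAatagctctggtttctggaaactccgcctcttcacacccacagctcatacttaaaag
Igtp: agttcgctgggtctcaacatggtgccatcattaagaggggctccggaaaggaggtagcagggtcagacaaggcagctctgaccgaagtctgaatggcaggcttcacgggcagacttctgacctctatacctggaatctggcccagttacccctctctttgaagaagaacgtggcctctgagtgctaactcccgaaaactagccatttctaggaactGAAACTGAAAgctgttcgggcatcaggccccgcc

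Within the myofibroblasts, these transcripts were unevenly spread over cells. To compare cells at equal depth, each was thinned to 2000 UMIs, which left 255 Cherry_Positive and 114 Cherry_Negative cells and dropped 1 and 36 shallower ones. The chemokine sum had a median of 3 UMIs (range 0 to 155) in Cherry_Positive and 0 UMIs (0 to 29) in Cherry_Negative cells, and it was 0 in 17.6% and 55.3% of cells. At least 10 chemokine UMIs were seen in 84 of 255 Cherry_Positive and 14 of 114 Cherry_Negative cells. The 26 Cherry_Positive cells richest in chemokines held 58.9% of those UMIs, and the richest 12 Cherry_Negative cells held 70.2%. The interferon gamma sum had a median of 2 UMIs (0 to 51) in Cherry_Positive and 1 UMI (0 to 27) in Cherry_Negative cells. Cells with more chemokine UMIs also tended to have more interferon gamma UMIs, with a Spearman coefficient of 0.52 over the Cherry_Positive and 0.33 over the Cherry_Negative cells, which share a library and its free RNA. The coefficient of contractile against chemokine sums was -0.10 in Cherry_Positive and 0.05 in Cherry_Negative cells, too weak to read.

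The share of cells with a UMI at this depth showed how far each gene reached. Cxcl10 was seen in 38.8% (32.8 to 45.1) of Cherry_Positive and 8.77% (4.29 to 15.5) of Cherry_Negative myofibroblasts, and without thinning in 48.0% and 9.33%. In endothelial cells, whose median depth was 3237 and 2459.5 UMIs, the same shares were 24.9% and 3.55%. Ccl2 was seen in 33.3% of Cherry_Positive and 3.51% of Cherry_Negative myofibroblasts, against 8.30% and 0.59% of endothelial cells. Saa3 was seen in 25.9% and 0.88% of myofibroblasts against 20.3% and 1.97% of endothelial cells, so its share in Cherry_Positive cells lies within the counting interval of the endothelial one. Timp1, an inhibitor of matrix proteases, was seen in 57.6% of Cherry_Positive and 21.1% of Cherry_Negative myofibroblasts, against 9.13% and 2.17% of endothelial cells. Isg15 was at 31.0% and 7.02% in myofibroblasts but 33.6% and 26.2% in endothelial cells, and Iigp1 at 44.3% and 11.4% against 29.9% and 19.5%. The Isg15 share of Cherry_Positive myofibroblasts thus did not exceed that of endothelium, which also answers to interferon, so endothelium is no clean background for such genes.

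**Figure D3:**
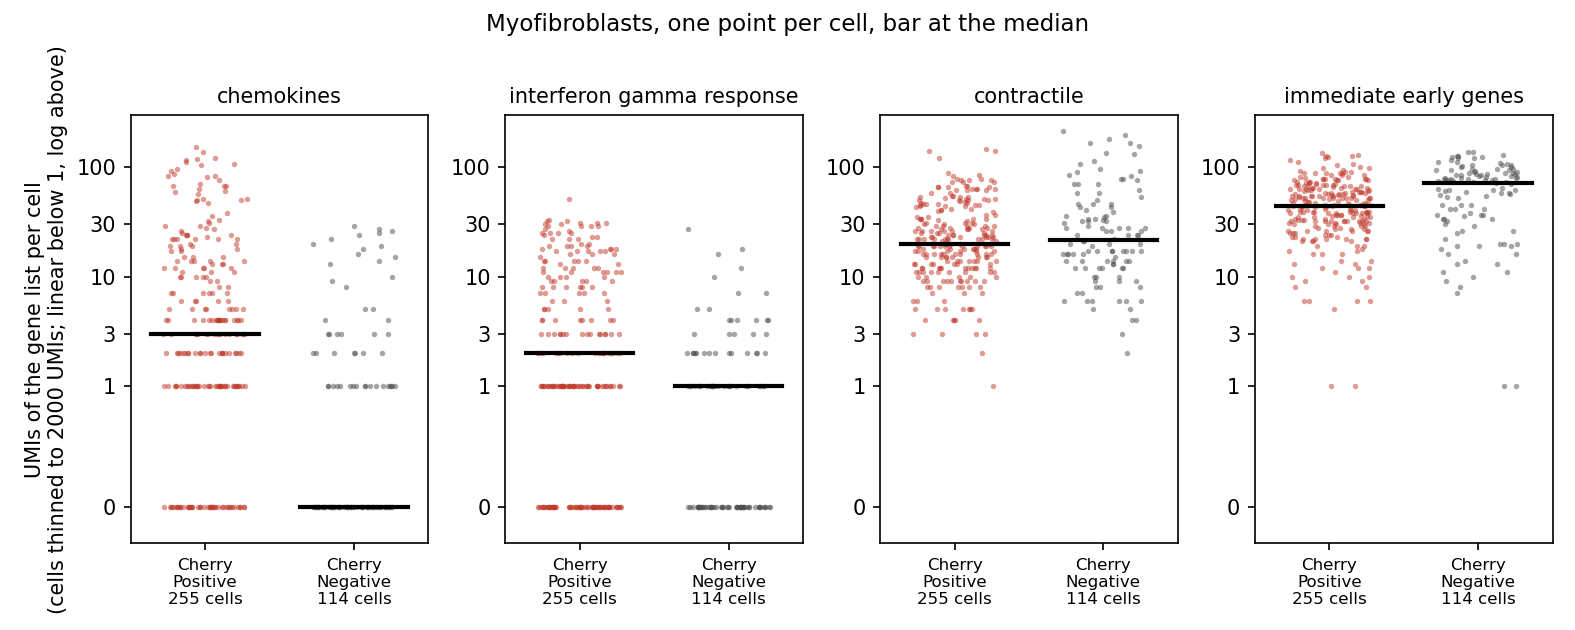
Each point is 1 myofibroblast thinned to 2000 UMIs, and the vertical axis gives its UMIs of a gene list (linear below 1, logarithmic above), with 255 Cherry_Positive cells left of 114 Cherry_Negative cells; bars are medians. The chemokine medians are 3 and 0 and the interferon gamma medians 2 and 1, while the contractile medians of 20 and 21.5 lie close together.

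Contractile genes were lower in summed CPM but nearly level in the median cell. Of 18 measured genes 16 were lower, 7 of them at least 2-fold, with a median log2 ratio of -0.81, or -0.61 under trimmed-mean scaling. Acta2 (chr19:34241090-34255590) was at 2821 CPM in Cherry_Positive and 4932 CPM in Cherry_Negative cells, a ratio of 0.57 (0.54 to 0.60). Per cell, however, it had 15.3 UMIs in Cherry_Positive and 14.1 UMIs in Cherry_Negative myofibroblasts, since the Cherry_Positive cells were deeper. Myl9, a myosin light chain gene, was at 663 and 2019 CPM, a ratio of 0.33 (0.30 to 0.36), and the actin-binding Tagln at 3399 and 4991 CPM. Des, the muscle intermediate filament desmin, and Actg2 had ratios of 0.92 (0.80 to 1.05) and 0.94 (0.82 to 1.09). Actc1, cardiac actin, was at 13.7 and 268 CPM, a ratio of 0.051, but in only 3 Cherry_Positive and 13 Cherry_Negative cells.

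At 2000 UMIs per cell the contractile sum had a median of 20 (middle range 12 to 37) in Cherry_Positive and 21.5 (12.25 to 45.25) in Cherry_Negative cells. The 26 Cherry_Positive cells richest in them held 29.6% of these UMIs, and the richest 12 Cherry_Negative cells held 39.8%. Acta2 was seen in 82.0% (76.7 to 86.5) of Cherry_Positive and 78.9% (70.3 to 86.0) of Cherry_Negative cells. Myl9 was less widespread in Cherry_Positive cells, at 56.1% (49.8 to 62.3) against 73.7% (64.6 to 81.5). The 10 smooth muscle markers, which share genes such as Cnn1 and Des with the contractile list, summed to 1462 CPM in Cherry_Positive and 2257 CPM in Cherry_Negative cells. Without the cells in which they made up 0.5% or more of the UMIs, leaving 247 and 135 cells in an alternative chosen after seeing the data, the contractile median was -0.11. In cells with at least 3 of the 5 rule genes it was -0.15, and as a mean over cells it was -0.33. Without the cells with carcinoma markers it was -0.58.

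Several signalling genes that mark the myofibroblast niche were lower in Cherry_Positive cells, while growth factor genes as a list were divided. Agt was seen in 18% (13.5 to 23.3) of Cherry_Positive and 42.1% (32.9 to 51.7) of Cherry_Negative cells at equal depth. Fgf18 was seen in 12.2% (8.41 to 16.8) of Cherry_Positive and 28.9% (20.8 to 38.2) of Cherry_Negative cells, and its CPM had a ratio of 0.36 (0.26 to 0.48). Of 20 measured growth factor and receptor genes 12 were lower, 5 of them at least 2-fold, and 1 was at least 2-fold higher. The median was -0.47 with an interval of -1.35 to 0.50, which covers 0. Over all genes with at least 10 UMIs 44.6% were higher, 8.70% at least 2-fold higher, 11.3% at least 2-fold lower, and the median was -0.11. The epithelial growth factor gene Fgf7 was at 82.1 CPM in Cherry_Positive and 184 CPM in Cherry_Negative cells, and Pdgfa, a ligand of the Pdgfra receptor, at 39.6 and 95.5 CPM. Angpt2, a ligand of the endothelial receptor Tie2, was at 13.0 and 95.5 CPM, a ratio of 0.14 (0.073 to 0.24). Igf1, the insulin-like growth factor, was higher, at 397 and 265 CPM with a ratio of 1.49 (1.22 to 1.84).

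The hedgehog list had 9 of 11 genes lower, 5 at least 2-fold, and a median of -0.87, but its interval of -1.78 to 0.08 covers 0. The targets Gli1 and Ptch1 had only 11 and 27 UMIs in Cherry_Positive cells and 7 and 15 UMIs in Cherry_Negative cells. Gas1, a coreceptor for hedgehog, was at 36.7 CPM in Cherry_Positive and 112 CPM in Cherry_Negative cells, a ratio of 0.33 (0.22 to 0.50). Wnt genes were divided, with 9 of 14 lower, 2 at least 2-fold each way and a median of -0.22. Sfrp1, a secreted Wnt inhibitor, had 158 UMIs in 51 Cherry_Positive cells against 3 UMIs in 2 Cherry_Negative cells, a ratio of 16.3 (5.47 to 79.8). The feedback target Axin2 was at 15.8 and 16.3 CPM.

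Among TGF-beta, activin and BMP genes 16 of 23 were lower, 6 at least 2-fold, and 4 were at least 2-fold higher, with a median of -0.34. Lower genes included the BMP targets Id1, at 27.4 CPM in Cherry_Positive and 107 CPM in Cherry_Negative cells, and Id2, at 85.0 and 275 CPM. The ligand Bmp4 was at 38.2 and 93.2 CPM and Bmp5 at 132 and 282 CPM. Higher genes included Tgfb1, at 100.1 and 41.9 CPM, and Fst, the activin binder follistatin, with 218 UMIs in 41 Cherry_Positive cells against 4 UMIs in 3 cells, a ratio of 16.9 (6.49 to 62.4).

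Matrix genes were split by type. The matricellular list had 11 of 16 genes higher, 6 at least 2-fold, and a median of 0.72, and the activated fibroblast list 10 of 12 higher, 8 at least 2-fold, and a median of 1.12 with an interval of -0.12 to 2.91, which covers 0. Tnc, the injury-associated tenascin C, was at 153 CPM in Cherry_Positive and 37.3 CPM in Cherry_Negative cells, a ratio of 4.12 (2.48 to 7.33). Postn, periostin, was at 107 and 23.3 CPM, a ratio of 4.58 (2.42 to 9.74), and the fibronectin gene Fn1 at 140 and 39.6 CPM. Col5a2 and Col4a2 had ratios of 2.1 (1.67 to 2.67) and 2.21 (1.52 to 3.34), while the collagen list as a whole had 9 of 14 genes higher and a median of 0.36. Col1a1, Col1a2 and Col3a1 belong to the rule and were not compared.

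Elastic fibre genes were divided, with 10 of 17 higher, 2 at least 2-fold higher, 3 at least 2-fold lower and a median of 0.05. Eln, elastin, was at 973 CPM in Cherry_Positive and 731 CPM in Cherry_Negative cells, and the microfibril gene Fbn1 at 187 and 105 CPM. Fbln5, a fibulin needed to assemble elastic fibres, was at 4.32 CPM (6 UMIs) and 60.5 CPM (26 UMIs), a ratio of 0.071 (0.024 to 0.18). The small proteoglycans had 4 of 6 lower, 3 at least 2-fold, and a median of -0.90, with Ogn at 74.2 and 261 CPM but Lum at 1357 and 1081 CPM. Both in cells with at least 3 of the 5 rule genes and without the top cell of each gene that median was -0.22.

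Proteases and their inhibitors went both ways, 4 of 18 at least 2-fold higher and 3 at least 2-fold lower, with a median of 0.06. Timp1 was at 748 CPM (703 to 795) in Cherry_Positive and 189 CPM (150 to 234) in Cherry_Negative cells, a ratio of 3.97 (3.16 to 5.04). Mmp2, a gelatinase gene, was lower, at 114 and 268 CPM, and so was Adam33, a membrane protease gene, at 16.6 and 144 CPM, a ratio of 0.115 (0.068 to 0.19). Among adhesion molecules Vcam1, which binds leukocyte integrins, was at 325 and 83.8 CPM, and Icam1 at 198 and 93.2 CPM. Itga8, an integrin gene counted here among the alveolar fibroblast markers, was lower, at 8.64 and 69.9 CPM.

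Among the other genes lowest by rule, Cytl1, a secreted cytokine-like protein gene, rested on 1 cell, which held 80.7% of its 166 Cherry_Negative UMIs, against 2 UMIs in Cherry_Positive cells. Ebf1, a transcription factor gene, was at 6.48 CPM (9 UMIs in 4 cells) in Cherry_Positive and 62.9 CPM (27 UMIs in 12 cells) in Cherry_Negative cells. In pericytes Ebf1 was far higher, at 1041 CPM in the Cherry_Positive and 1185 CPM in the Cherry_Negative library. Ramp1, which partners a peptide receptor, was at 15.1 and 109 CPM in myofibroblasts. Gstk1, a glutathione transferase gene, was at 18 and 109 CPM, and the neuroglobin gene Ngb at 19.4 and 112 CPM. Mcam, a smooth muscle and endothelial adhesion molecule, was at 7.20 and 55.9 CPM, a log2 ratio of -2.96 that was -1.40 without the cells rich in smooth muscle markers. Mcam is itself among those markers, so cells were left out partly for holding it, and its change there cannot be read. Sh3bgr, which is not among those markers, had a log2 ratio of -2.86 that was -1.59 without the same cells. Itih4 had 12 UMIs in Cherry_Positive and 40 UMIs in Cherry_Negative cells.

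Stress, metabolic and the remaining lists differed in both directions. Of 21 immediate early genes, which respond to handling as well as to signals, 16 were lower, 2 at least 2-fold, with a median of -0.53. Fos was at 3918 CPM in Cherry_Positive and 6474 CPM in Cherry_Negative cells, and the per-cell sum at equal depth had medians of 44 and 72.5 UMIs. The unfolded protein list had 11 of 14 higher, 4 at least 2-fold, and a median of 0.58, with the chaperone gene Hspa5 at 788 and 387 CPM. In the oxidative stress list, with 8 of 15 higher and a median of 0.22, Sod2 had a ratio of 3.08 (2.41 to 3.98) and Gstm1 one of 0.28 (0.24 to 0.32). Glycolysis and hypoxia genes had a median of 0.09 with 10 of 17 higher, among them the hexokinase gene Hk2 at 104 and 27.9 CPM. The p53 targets had 6 of 14 higher, 0 at least 2-fold either way, and a median of -0.13, or 0.07 under trimmed-mean scaling. Cell cycle genes had 10 of 13 higher and a median of 0.63, and -0.13 without the cells that carried carcinoma markers. Retinoid and Notch genes had 7 of 9 lower and a median of -0.32, insulin-like growth factor binding proteins 4 of 5 lower and a median of -0.22, and lysophosphatidic acid and prostaglandin genes 6 of 9 higher and a median of 0.18. The adhesion list had 8 of 14 higher, 4 at least 2-fold higher and 2 at least 2-fold lower, and a median of 0.48.

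**Figure D4:**
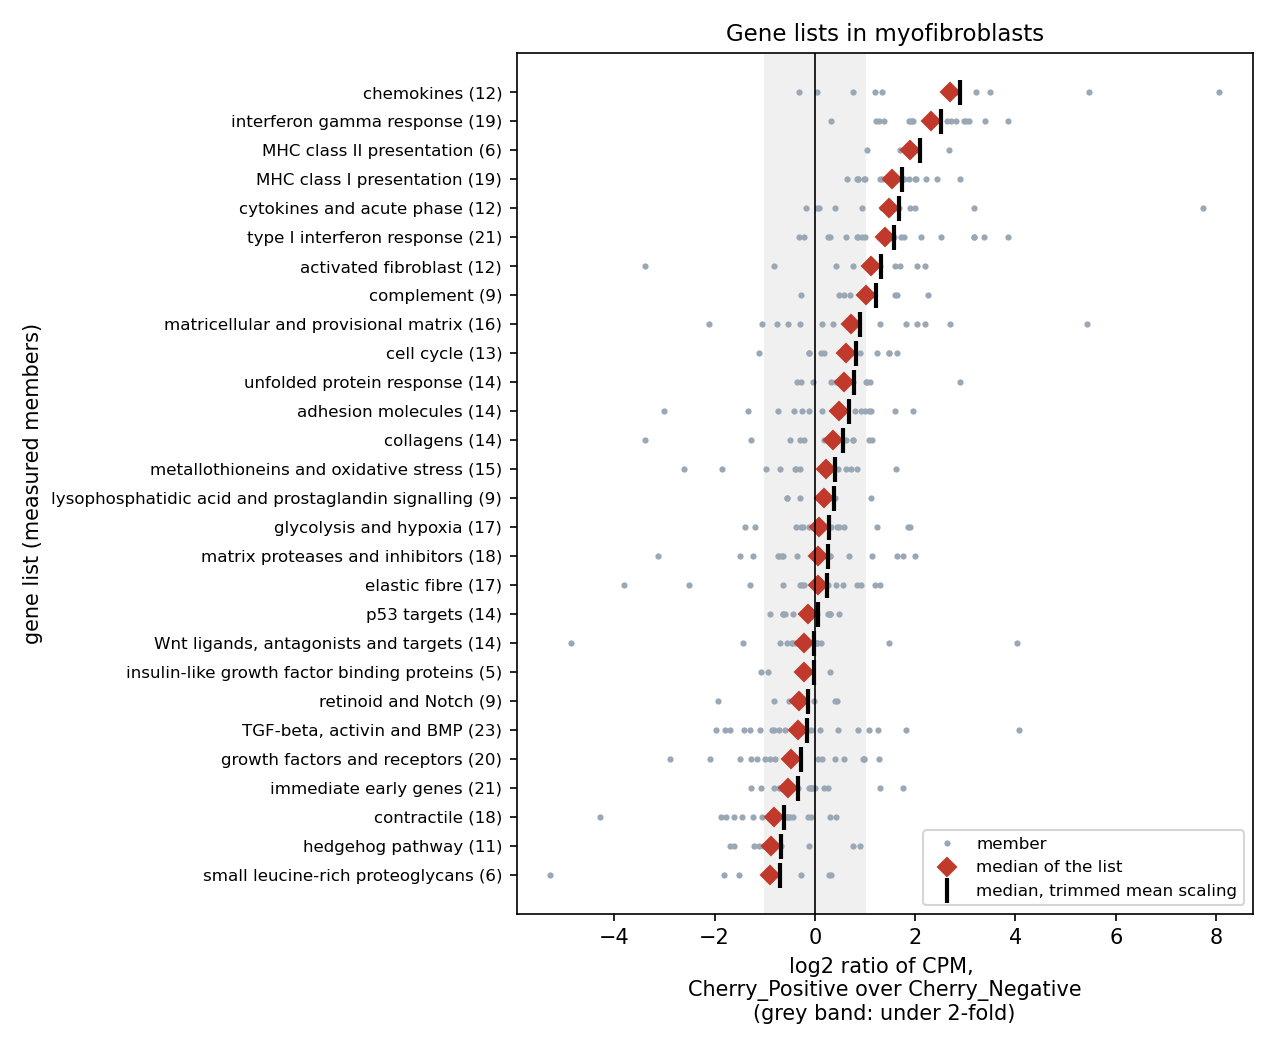
Each row is 1 of 28 gene lists in myofibroblasts with its number of measured genes; the horizontal axis gives log2 of the CPM ratio of Cherry_Positive over Cherry_Negative, 1 library each, with grey points for genes, red diamonds for medians and black bars for medians under trimmed-mean scaling. Chemokines stand at the top at 2.69 and small leucine-rich proteoglycans at the bottom at -0.90, with most lists inside the grey band of under 2-fold.

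Set beside the other mesenchymal classes, the medians of the interferon gamma, chemokine and MHC class I lists were above 0 in all 4 and that of the contractile list was not. The interferon gamma medians were 2.32 in myofibroblasts, 2.39 in alveolar fibroblasts, 1.93 in adventitial fibroblasts and 1.85 in pericytes, with all 19 genes higher in each. The chemokine medians were 2.69, 3.44, 1.85 and 2.74 in the same order of classes. The MHC class I medians were 1.54, 1.10, 0.70 and 1.41. The contractile median was -0.81 in myofibroblasts and -0.68 in pericytes, over 18 and 14 measured genes. It was 0.76 in alveolar and 0.19 in adventitial fibroblasts, over 11 and 12 measured genes. These differences between classes have no replicates and were not tested.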

How the data were processed

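The deposited matrices hold raw counts of UMIs per gene and barcode for 27998 gene IDs in 2 libraries of Chromium 3' chemistry, per the labels. Cell Ranger 2.1.1, the mm10 build, Seurat 4.0.2 and R 4.0.3 are named in the submitters' processing notes. No doublet caller was run, and doublets may remain.

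The tools were pandas 2.3.3, scipy 1.17.1 and numpy 2.4.6 under Python 3.11.15, with matplotlib 3.10.9 for figures. The members and the 28 gene lists were chosen with earlier results of these data known. UMIs were summed over the class and divided by its total. Ratios carry exact binomial intervals, levels Poisson and shares Clopper-Pearson intervals. A gene with 0 UMIs on 1 side was set against a floor of 3 counts. List genes needed 10 UMIs over both libraries. Of 584 list and marker genes, 7 were not matched and 4 symbols belong to several IDs, so neither were used in the list counts and medians. A list's interval is that of its middle gene, or the mean of the log2 bounds of its middle genes where their number is even.

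Named genes were the 12 higher and 12 lower with the interval bound farthest from 1 without their top cell, among genes with at least 30 UMIs and 20 CPM in either library. Genes of the rule, mitochondrial, ribosomal, haemoglobin and immunoglobulin genes were left out, as were 55 genes 10 times higher in endothelial, epithelial or leukocyte cells. The 12 between-class genes and list members could also be named. Positions come from GENCODE release 21 (GRCm38). The ratio step was tested on simulated data. Alternatives changed the cell filters, the rule, scaling, gene filters, free RNA and thinning.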

Additional observations from a re-analysis of the deposited data

Results flagged for a closer look

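These results ran in opposite directions in myofibroblasts and in alveolar fibroblasts of the same 2 libraries. The difference between the classes was not tested, since each group is 1 library. The contractile list had a median log2 ratio of -0.81 in myofibroblasts, over 18 measured genes, and 0.76 in alveolar fibroblasts, over 11. The myofibroblast median was smaller in size under the alternatives given above with the contractile genes. Efnb2, the ligand ephrin-B2, had a ratio of 0.236 in myofibroblasts (16 UMIs in Cherry_Positive and 21 UMIs in Cherry_Negative cells) and 2.43 in alveolar fibroblasts.

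The MHC class II list had a median of 1.91 in myofibroblasts and -1.51 in alveolar fibroblasts. Its genes had ratios of 4.15 and 0.267 for H2-Aa, 2.07 and 0.440 for H2-Ab1, 6.42 and 0.281 for H2-Eb1, and 3.63 and 0.220 for Cd74, with the value in myofibroblasts first. The top cell of each gene was then left out of the Cherry_Positive library only, the one with the higher level. The myofibroblast ratios were then 1.5 for H2-Aa, 1.28 for H2-Ab1, 1.47 for H2-Eb1 and 1.49 for Cd74.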

How the results depend on the processing

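No paired analysis was possible because each group is 1 library, and for the same reason no replicate could be left out. Leaving out cells with 3 or more UMIs of other lineages kept only 40 Cherry_Positive and 4 Cherry_Negative cells, with shares of 2.26% and 0.142%, a ratio of 15.9, and 126 genes higher and 47 lower. It left 1 list with a median of at least 1 (against 8) and 12 at or under -0.5 (against 4). It turned the medians of the matricellular (-0.51), cytokine (-0.87), interferon gamma (-1.07), type I interferon (-0.98), MHC class I (-0.0042), complement (-0.27), unfolded protein (-0.049), activated fibroblast (-1.07), collagen (-0.79), matrix protease (-0.85), adhesion (-0.18), lysophosphatidic acid (-0.84) and elastic fibre (-0.044) lists, and the log2 ratios of Saa3 (-1.71), Tnfaip2 (-0.58), Tmem173 (-2.13) and Fst (-1.39). With so few cells left, genes at 0 are set at the floor. Leaving out instead cells with 1% or more of such UMIs, an alternative added after seeing the data, kept 255 and 147 cells, 412 genes higher and 368 lower, and 8 and 4 lists.

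Cells with at least 3 of the 5 markers (added after seeing the data) were 12.3% of Cherry_Positive and 4.41% of Cherry_Negative cells, with 2 lists at or under -0.5. Trimmed-mean scaling gave 235 genes lower. The mean over cells gave 4 lists at or above 1 and 2 at or under -0.5. A minimum of 10 UMIs gave 801 genes higher and 1041 lower, and no minimum 898 and 1468, since more genes were tested. The cell cycle median was -0.23 with cells thinned before the rule, and, in alternatives added after seeing the data, -0.13 without cells with carcinoma markers and -0.14 without cells over 15000 UMIs. Thinned to 1000 UMIs, Cxcl10 was seen in 32.0% of Cherry_Positive cells and Acta2 in 73.8% of Cherry_Positive and 68.7% of Cherry_Negative cells, and without thinning in 48.0% (Cxcl10) and 91.0% (Acta2) of Cherry_Positive cells. The matrix protease median, 0.06 as reported, was -0.12 with no cell filter and also -0.12 with 5% of free RNA subtracted. The subtraction gave 462 genes higher and 387 lower. The cause was not tested. Of 33 values of the shares and their ratio under alternatives, 28 stayed within the interval of the reported one. Depth limits genes with few UMIs in the 150 Cherry_Negative cells.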

Other observations

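Transcripts of haemoglobin, the oxygen carrier of red cells, were more frequent in Cherry_Positive myofibroblasts. Hbb-bs had 124 UMIs in Cherry_Positive and 3 UMIs in Cherry_Negative cells, and Hba-a1 36 UMIs and 0 UMIs. The surfactant gene Sftpc ran the other way, with 183 UMIs in Cherry_Positive and 648 UMIs in Cherry_Negative cells. The airway secretoglobin Scgb1a1 was nearly level at 344 and 363 CPM. Whether this RNA came from other cells was not tested.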
